A study of Homo sapiens with 10 samples.

Results

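The genes of the proteasome, the large protease that degrades most ubiquitin-tagged proteins, were compared across acute and long-term olaparib exposure of Kuramochi cells. All genes of the deposited count table with a PSMA, PSMB, PSMC, PSMD, PSME, PSMF or PSMG symbol ending in a number were chosen, and POMP was added. These were 49 of the 19893 genes in the table. Of the 49, 5 encode subunits known to be induced by interferon (PSMB8, PSMB9, PSMB10, PSME1 and PSME2), and the other 44 encode the constitutive core and regulatory particles, activators, an inhibitor and assembly chaperones.

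Kuramochi cells are an epithelial line from a human high-grade serous ovarian carcinoma. They are labelled BRCA2-mutant in every sample, controls included. Olaparib inhibits the DNA repair enzymes PARP1 and PARP2. The tested conditions were drug-naive cells exposed for 9 days to 10 µM olaparib (10 µM persister), the same at 320 µM (320 µM persister), and olaparib-resistant populations adapted to 10 µM (10 µM adapted) or to 320 µM (320 µM adapted). Drug-naive, untreated cells were the control. The adapted populations come from 1 cell line, and how long they were grown in drug is not given in the sources used here.

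Proteasomes are built from a barrel-shaped 20S core, whose outer alpha rings gate the entrance and whose inner beta rings hold the active sites, and from a 19S cap whose ATPases unfold the substrate. In most cells the active sites belong to PSMB5, PSMB6 and PSMB7. After interferon exposure PSMB8, PSMB9 and PSMB10 take their places in newly assembled cores, which are then called immunoproteasomes, and the PA28 activator made of PSME1 and PSME2 can replace the cap. Immunoproteasomes are known for producing peptides that fit major histocompatibility complex (MHC) class I molecules.

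RNA was counted by droplet single-cell sequencing of the 3′ end of transcripts. Each condition was present in both of 2 hashed pools, so unique molecular identifiers (UMIs, 1 per captured RNA molecule) were counted and added up for each pair of condition and pool. This gave 10 sums, 2 per condition, of 263 to 2435 cells and 3532281 to 23189583 UMIs. Levels are given as CPM (UMI counts relative to the total of the sum after scaling by trimmed mean of M-values, TMM), for pool 1 and then pool 2. No label states that the pools are separate cultures. The p-values therefore reflect only how far the 2 pools of a condition lie apart, which may be technical. That spread was estimated jointly over all 10 sums and shared across genes, not taken from the sums of 1 comparison alone. The median cell held 12099.5 and 15213 UMIs in 10 µM persister cells, against 8539 and 10000 in control. Cells on a second, deposited list made up 53.9% to 78.7% of the cells of treated sums, against 42.3% and 43.5% of control cells.

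Of 9 markers of this tumour type, 3 were higher and 4 lower than control in 10 µM persister cells. In 320 µM persister cells 0 and 5 were, in 10 µM adapted cells 2 and 6, and in 320 µM adapted cells 1 and 8. Of all genes 27.3% were higher and 29.3% lower in 10 µM persister cells, and 26.3% and 28.3% in 320 µM persister cells. The shares of all genes in adapted cells were 33.7% and 33.4% at 10 µM and 37.6% and 36.9% at 320 µM. The lineage factor PAX8 stood at 62.8 to 173 CPM over all sums and was lowest in 320 µM adapted cells (64.1 and 62.8 CPM). SOX17, another of these markers, was at 4.32 and 7.02 CPM in 320 µM adapted cells, against 289 and 360 CPM in control, and KRT7 was at 64.2 and 82.1 CPM in 10 µM persister cells, against 2.92 and 2.76 CPM in control. The summed level of the 9 was 3510 and 2891 CPM in 10 µM persister cells and 2562 and 2528 CPM in 320 µM persister cells. Adapted cells had 2554 and 2485 CPM at 10 µM and 1365 and 1235 CPM at 320 µM, against 4485 and 4646 CPM in control. Of 10 leukocyte markers, which matter here because leukocytes carry immunoproteasomes without interferon, CD3E and MS4A1 had no UMI in any sum and PTPRC did not pass 0.480 CPM. The summed leukocyte list was 28.1 and 27.9 CPM in 10 µM persister cells, 10.7 to 22.7 CPM in the other treated sums and 6.10 and 7.63 CPM in control, with CD68 (11.1 and 13.7 CPM against 0.530 and 0.721) and CD14 (11.3 and 6.96 CPM against 0.265 and 0.170) making up most of the difference between 10 µM persister cells and control. Fibroblast markers summed to 183 and 180 CPM in 10 µM adapted cells, against 12.4 and 12.8 CPM in control, and the part of either list in the results was not tested.

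Measured against control, more proteasome genes rose than fell in 10 µM persister cells, and nearly all that changed in 320 µM persister cells fell. In 10 µM persister cells 21 of the 47 tested proteasome genes rose and 8 fell, while 27.3% of all 13330 tested genes rose and 29.3% fell. In 320 µM persister cells 1 rose and 31 fell, while 26.3% of all genes rose and 28.3% fell. The adapted cells lay closer to the second pattern, with 9 higher and 28 lower at 10 µM (33.7% and 33.4% of all genes) and 11 higher and 27 lower at 320 µM (37.6% and 36.9% of all genes). A gene counts as having risen or fallen at an adjusted p under 0.05 in edgeR's quasi-likelihood test with Benjamini-Hochberg adjustment over all genes tested.

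The median log2 change of the 47 was 0.05 in 10 µM persister cells, -0.17 in 320 µM persister cells, -0.25 in 10 µM adapted cells and -0.26 in 320 µM adapted cells, all against control. The medians over all tested genes were -0.03, -0.01, 0.00 and 0.01 in the same 4 comparisons. Scaling by library totals alone moved the all-gene median by 0.12 in 10 µM persister cells and by -0.23 in 320 µM adapted cells, and the split of proteasome genes was then 26 higher and 5 lower in 10 µM persister cells and 7 higher and 34 lower in 320 µM adapted cells. The 8 falls in 10 µM persister cells were 5 without the pool 2 sum of those cells, and no gene rose in 320 µM persister cells when their pool 1 sum or the pool 2 sum of control was left out. All 4 comparisons use the same 2 control sums. In a sum, more RNA per cell and more cells of a high-expressing kind cannot be told apart. In the listed cells alone the counts were 22 higher and 6 lower in 10 µM persister cells, and 2 higher and 25 lower in 320 µM persister cells.

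**Figure D1:**
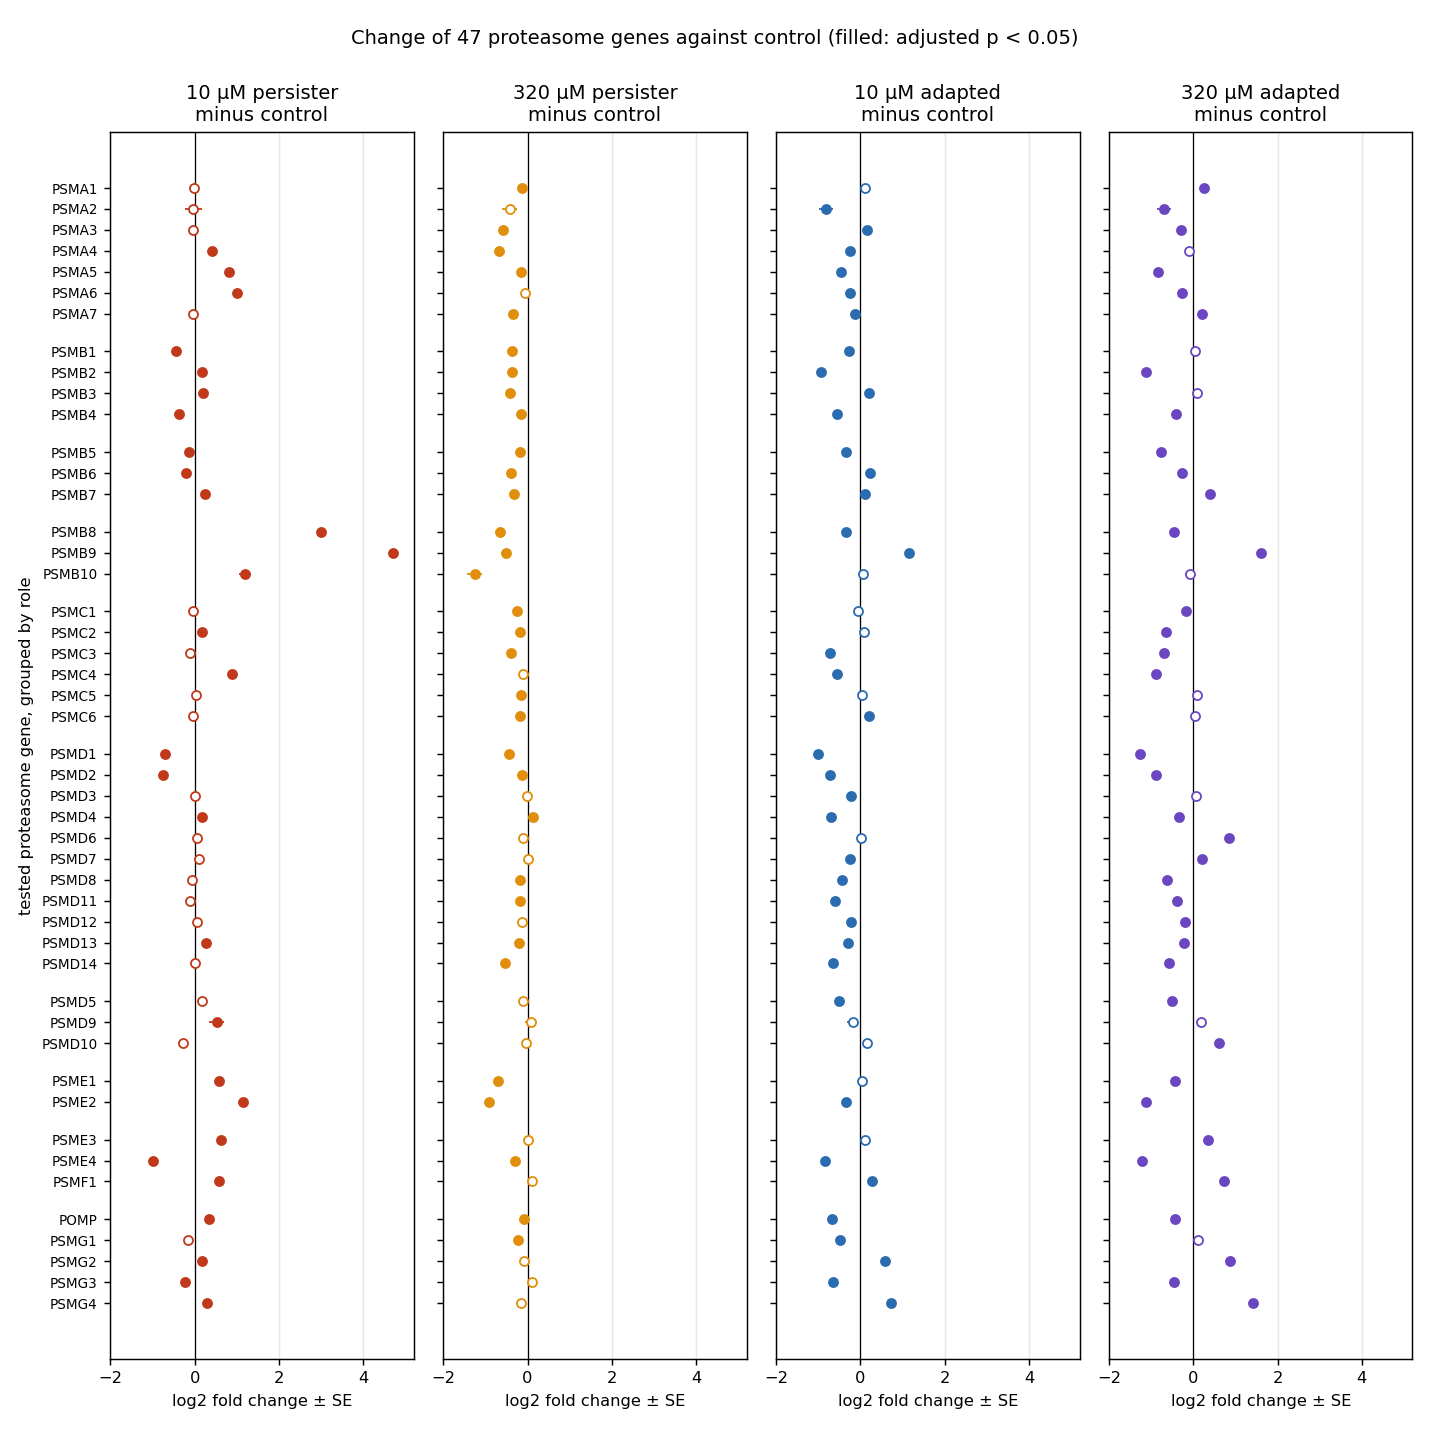
Log2 fold change against control (x axis, ± SE of the fit) of the 47 tested proteasome genes (y axis, grouped by role, from the 20S alpha ring at the top to the assembly chaperones at the bottom) in the 4 treated conditions, with filled points for adjusted p under 0.05. PSMB9 reaches 4.70 in 10 µM persister cells, where 21 genes are higher and 8 lower, and most points in the panel of 320 µM persister cells sit below 0.

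Of the 49 genes, 2 could not be tested. PSMA8, the alpha subunit of testis proteasomes, had no UMI in any sum, where 3 UMIs would have been 0.127 to 0.773 CPM. PSMB11, the catalytic subunit of the thymus cortex, had 1 UMI, in the pool 2 sum of 320 µM adapted cells. GENCODE 29 names pseudogenes of 12 of the 49 genes, PSMC1 with 13 and PSMA2, PSMA3, PSMA6, PSMB3, PSMB7, PSMD4, PSMD7, PSMD8, PSMD10, PSMD12 and PSME2 with 1 to 4 each, whose reads could be shared with the parent gene.

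The 5 interferon-induced genes behaved as a block in persister cells. In 10 µM persister cells all 5 rose, whereas of the 42 other tested genes 16 rose and 8 fell. There 27.3% of all genes rose and 29.3% fell. In 320 µM persister cells all 5 fell, whereas of the 42 others 1 rose and 26 fell. There 26.3% of all genes rose and 28.3% fell. In adapted cells the 5 did not share a direction. At 10 µM 1 was higher and 2 lower, while 33.7% of all genes were higher and 33.4% lower. At 320 µM 1 was higher and 3 lower, while 37.6% of all genes were higher and 36.9% lower. With only 5 genes, these adapted counts are not set apart from the shares of all genes.

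PSMB9 encodes the induced subunit that replaces PSMB6 and lies in the MHC region beside the peptide transporter gene TAP1 (chromosome 6, 32844136 to 32859585, plus strand, GENCODE 29 on GRCh38). It was counted at 427 and 375 CPM in 10 µM persister cells and 11.3 and 10.1 CPM in 320 µM persister cells. Adapted cells had 33.7 and 34.1 CPM at 10 µM and 48.7 and 44.4 CPM at 320 µM, against 14.9 and 15.9 CPM in control. The treated pools did not overlap the control pools in any condition, and the order of the conditions was the same in both pools. Against control PSMB9 was 26.0-fold higher in 10 µM persister cells (log2 change 4.70 ± 0.07, SE, n = 2 sums per condition, edgeR adjusted p = 3.55e-29), fell by 0.52 ± 0.11 on the log2 scale in 320 µM persister cells (edgeR adjusted p = 0.000274), and was higher by 1.14 ± 0.08 in 10 µM adapted cells and by 1.60 ± 0.08 in 320 µM adapted cells (edgeR adjusted p = 2.75e-13 and 1.99e-17). Its log2 change in 10 µM persister cells was 4.53 when the listed cells alone were counted. The gene shares 568 bases with PSMB8 and 8770 with TAP1, both on the opposite strand, and whether the counting used strand is not given in the sources used here.

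PSMB8, which replaces PSMB5 (chromosome 6, 32840717 to 32844703, minus strand), stood at 212 and 183 CPM in 10 µM persister cells and 14.1 and 17.5 CPM in 320 µM persister cells. Adapted cells had 19.1 and 20.3 CPM at 10 µM and 18.0 and 17.8 CPM at 320 µM, against 24.7 and 25.0 CPM in control. Every treated sum other than those of 10 µM persister cells was below both control sums. The change was 7.95-fold upward in 10 µM persister cells (log2 2.99 ± 0.08, edgeR adjusted p = 8.13e-24), and PSMB8 fell by 0.65 ± 0.10, 0.33 ± 0.09 and 0.47 ± 0.09 on the log2 scale in 320 µM persister, 10 µM adapted and 320 µM adapted cells. So in both adapted populations PSMB9 was higher and PSMB8 lower than in control, whereas both were higher in 10 µM persister cells.

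PSMB10, which replaces PSMB7 (chromosome 16, 67934502 to 67937087, minus strand), had the fewest UMIs of the 3. It stood at 26.6 and 20.9 CPM in 10 µM persister cells and 4.36 and 4.31 CPM in 320 µM persister cells. Adapted cells had 10.6 and 11.1 CPM at 10 µM and 10.5 and 9.11 CPM at 320 µM, against 11.5 and 9.24 CPM in control. The persister sums lay outside the control range on opposite sides, and the adapted sums overlapped it. The log2 change was 1.19 ± 0.15 in 10 µM persister cells and -1.26 ± 0.18 in 320 µM persister cells (edgeR adjusted p = 4.3e-08 and 6.13e-07). In adapted cells it was 0.06 ± 0.12 at 10 µM and -0.08 ± 0.12 at 320 µM and did not pass the test, although the second was -0.31 and called with library totals alone. PSMB10 lies on the same strand as an overlapping gene of the table, AC040162.1, over 1516 bases, so reads of the 2 can be confused.

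The PA28 genes PSME1 and PSME2 lie 4394 bases apart on chromosome 14. PSME2, which encodes PA28 beta, stood at 939 and 877 CPM in 10 µM persister cells and 219 and 217 CPM in 320 µM persister cells. Adapted cells had 325 and 326 CPM at 10 µM and 191 and 189 CPM at 320 µM, against 407 and 414 CPM in control. Its adapted and control pools did not overlap, and the 320 µM adapted sums were the lowest. PSME1, which encodes PA28 alpha, stood at 401 and 380 CPM in 10 µM persister cells and 159 and 160 CPM in 320 µM persister cells. Adapted cells had 256 and 272 CPM at 10 µM and 191 and 191 CPM at 320 µM, against 258 and 261 CPM in control. PSME1 and PSME2 were both highest in 10 µM persister cells and fell below control in 320 µM persister and 320 µM adapted cells. The log2 changes against control were 1.15 ± 0.04, -0.91 ± 0.04, -0.34 ± 0.04 and -1.11 ± 0.04 for PSME2 (10 µM persister, 320 µM persister, 10 µM adapted, 320 µM adapted), each past the test. For PSME1 they were 0.59 ± 0.05, -0.71 ± 0.05, 0.03 ± 0.04 and -0.45 ± 0.05, and the third did not pass it.

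**Figure D2:**
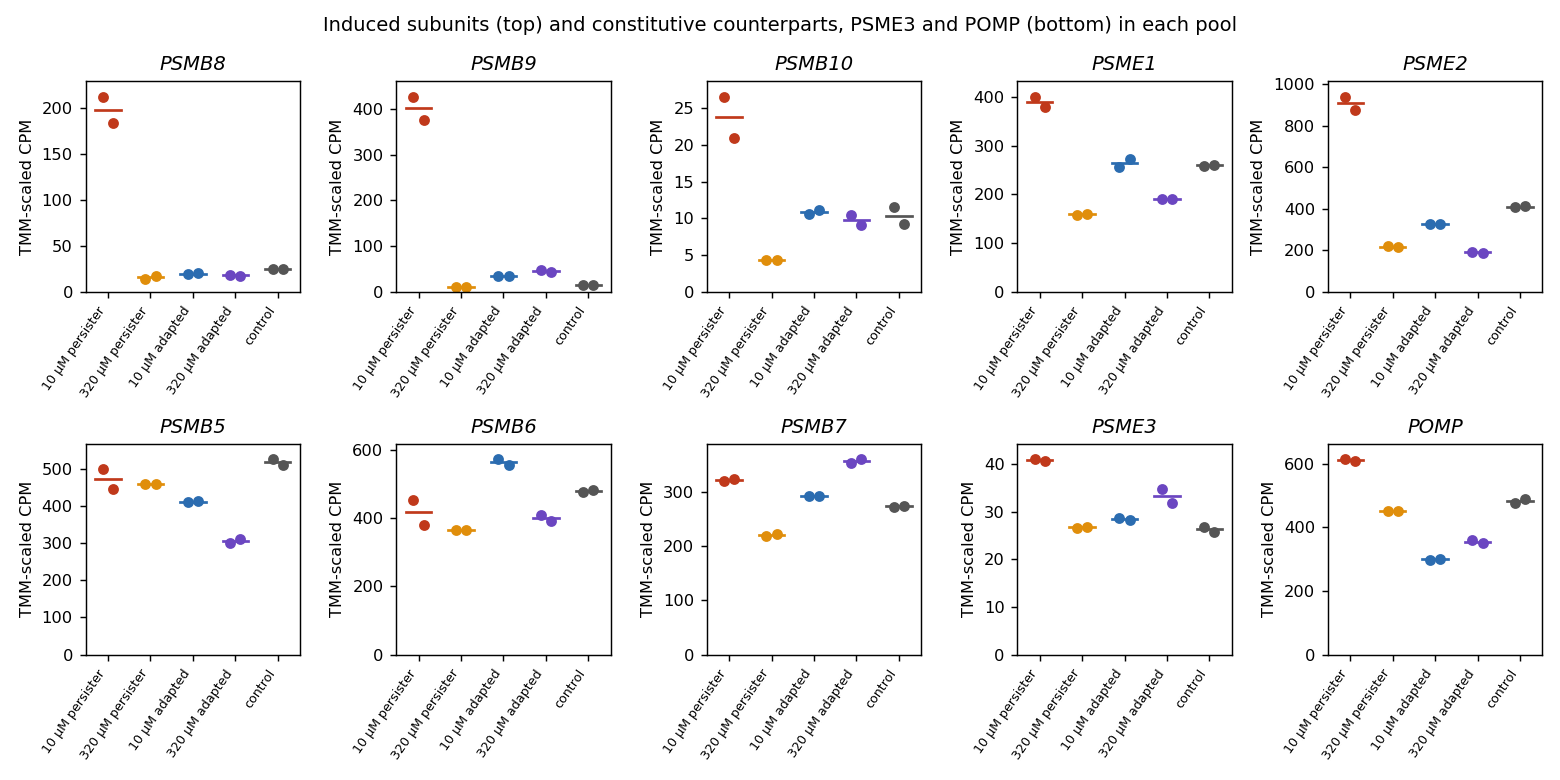
TMM-scaled CPM (y axis, from 0) of the 5 interferon-induced genes (top row) and of PSMB5, PSMB6, PSMB7, PSME3 and POMP (bottom row) in the 5 conditions, with 1 point per pool and a line at their mean. The 10 µM persister points stand above all others in the top row, as with 427 and 375 CPM for PSMB9 against 14.9 and 15.9 CPM in control, and the bottom row spans a narrower range of folds.

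A promoter window of each of the 5 induced genes, and of TAP1, is printed because the 5 moved together in persister cells and TAP1 lies beside PSMB9. The windows run from 250 bases before to 50 bases after the start site (RefSeq, GRCh38.p14) and were found for 43 of the 49 genes, 52 windows in all. They were searched on both strands for GAAANNGAAA (a core of the interferon-stimulated response element), TTCNNNGAA (a core of the interferon gamma-activated site) and TGACNNNGC (a core of the antioxidant response element). Capitals mark every match of the first 2 motifs, and matches of TGACNNNGC are left in lower case. PSMB8 and TAP1 have 2 windows each, of which the one with a match of the first motif is shown. The other window of PSMB8, chr6:32844630-32844929, held no match of any of the 3 motifs, and that of TAP1, chr6:32852712-32853011, held 1 match of TTCNNNGAA. Each sequence is written 5′ to 3′ on the strand of its gene.
PSMB8, chr6:32843998-32844297, minus strand: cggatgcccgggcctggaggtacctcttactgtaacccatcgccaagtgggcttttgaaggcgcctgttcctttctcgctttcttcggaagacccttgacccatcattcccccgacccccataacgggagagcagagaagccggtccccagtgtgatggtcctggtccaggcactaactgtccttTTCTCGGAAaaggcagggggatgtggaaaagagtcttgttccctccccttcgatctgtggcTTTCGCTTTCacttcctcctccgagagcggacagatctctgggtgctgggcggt
PSMB9, chr6:32853942-32854241, plus strand: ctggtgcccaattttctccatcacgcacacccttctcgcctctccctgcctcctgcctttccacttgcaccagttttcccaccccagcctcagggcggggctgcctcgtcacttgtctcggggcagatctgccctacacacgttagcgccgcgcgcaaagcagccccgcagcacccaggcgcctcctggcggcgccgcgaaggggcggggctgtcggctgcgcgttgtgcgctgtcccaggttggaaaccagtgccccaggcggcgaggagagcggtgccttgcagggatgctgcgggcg
PSMB10, chr16:67936801-67937100, minus strand: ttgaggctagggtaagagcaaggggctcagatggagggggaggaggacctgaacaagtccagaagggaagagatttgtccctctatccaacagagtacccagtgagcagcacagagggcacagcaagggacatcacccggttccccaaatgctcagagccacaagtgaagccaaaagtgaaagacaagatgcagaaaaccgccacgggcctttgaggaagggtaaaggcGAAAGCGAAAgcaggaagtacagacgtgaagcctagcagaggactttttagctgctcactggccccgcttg
PSME1, chr14:24135944-24136243, plus strand: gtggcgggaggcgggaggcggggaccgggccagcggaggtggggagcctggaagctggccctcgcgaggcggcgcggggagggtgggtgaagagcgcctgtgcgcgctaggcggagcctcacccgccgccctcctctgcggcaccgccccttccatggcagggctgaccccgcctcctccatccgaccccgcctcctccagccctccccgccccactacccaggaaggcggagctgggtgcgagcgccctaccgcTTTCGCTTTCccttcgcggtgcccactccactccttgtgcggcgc
PSME2, chr14:24146561-24146860, minus strand: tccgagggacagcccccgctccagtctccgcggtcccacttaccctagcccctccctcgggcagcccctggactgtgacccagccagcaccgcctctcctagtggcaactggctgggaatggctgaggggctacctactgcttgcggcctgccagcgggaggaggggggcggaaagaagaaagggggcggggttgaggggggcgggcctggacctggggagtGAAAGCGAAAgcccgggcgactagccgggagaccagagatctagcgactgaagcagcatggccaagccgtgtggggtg
TAP1, chr6:32853655-32853954, minus strand: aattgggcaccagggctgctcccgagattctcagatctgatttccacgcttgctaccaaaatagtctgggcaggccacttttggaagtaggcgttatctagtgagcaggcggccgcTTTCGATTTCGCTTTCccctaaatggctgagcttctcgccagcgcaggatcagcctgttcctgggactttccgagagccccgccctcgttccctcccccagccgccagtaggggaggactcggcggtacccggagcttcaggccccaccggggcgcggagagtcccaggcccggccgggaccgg

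The interferon response letters were found in at least 1 window of 4 of the 5 induced genes (PSMB8, PSMB10, PSME1 and PSME2) and of 3 of the 38 other proteasome genes with a window (PSMA4, PSMB4 and PSMG4). Among all 35116 windows of the same length in the table, 3.57% held them. Proteasome genes are counted here by gene and the background by window, so a gene with several windows has more chances of a match. With the start site as position 0, the match began at -4 in PSMB8, -21 in PSMB10, 5 in PSME1 and -28 in PSME2, all close to the start. The window of PSMB9 held no match of these letters, although PSMB9 had the greatest rise of the 49. The printed window of the neighbouring TAP1 gene, on the other strand, held 2 overlapping matches. They lie between the start sites of TAP1 and PSMB9, and their nearest base is 354 bases from that of PSMB9 and outside its window. Gamma-activated site letters were in the windows of 1 induced gene, PSMB8, and of 7 others, against 7.66% of all windows. Antioxidant response letters were in 3 induced genes (PSMB9, PSME1 and PSME2) and 12 others, against 13.3% of all windows. These matches describe letters in a window, not bound sites.

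In persister cells each counterpart that an induced subunit replaces had a smaller change against control than that subunit, but in adapted cells this did not hold for every pair. In 320 µM adapted cells the log2 change was -0.77 for PSMB5 and -0.47 for PSMB8, and 0.39 for PSMB7 and -0.08 for PSMB10. In 10 µM adapted cells PSMB5 and PSMB8 were both at -0.33. PSMB5 carries the chymotrypsin-like site and stood at 499 and 447 CPM in 10 µM persister cells and 459 and 460 CPM in 320 µM persister cells. Adapted cells had 410 and 413 CPM at 10 µM and 300 and 310 CPM at 320 µM, against 526 and 512 CPM in control. It was below control in all 4 conditions, most in 320 µM adapted cells (log2 change -0.77 ± 0.05, edgeR adjusted p = 2.52e-15). In 10 µM persister cells the change of PSMB5 was -0.13 ± 0.05, and it lost its call without the pool 2 sum of those cells (-0.06) or the pool 1 sum of control (-0.11), in DESeq2 (-0.09), with RLE factors (-0.09), in a fit of these 4 sums alone (-0.10) and with library totals alone (-0.01).

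PSMB6, with the caspase-like site, stood at 454 and 381 CPM in 10 µM persister cells and 367 and 364 CPM in 320 µM persister cells. Adapted cells had 573 and 558 CPM at 10 µM and 408 and 392 CPM at 320 µM, against 477 and 484 CPM in control. It was higher than control in 10 µM adapted cells only, by 0.24 ± 0.05 on the log2 scale. Its fall in 10 µM persister cells, -0.20 ± 0.06 on the log2 scale, was not called without their pool 2 sum (-0.09), in DESeq2 (-0.16, DESeq2 adjusted p = 0.0512), in the listed cells alone (-0.10) or with library totals alone (-0.08). PSMB7, with the trypsin-like site, stood at 320 and 324 CPM in 10 µM persister cells and 219 and 222 CPM in 320 µM persister cells. Adapted cells had 293 and 293 CPM at 10 µM and 354 and 360 CPM at 320 µM, against 271 and 275 CPM in control. It was above control in 3 conditions and below it in 320 µM persister cells. Its rise in 10 µM adapted cells, 0.10 ± 0.04, lost its call without any 1 of the 4 sums compared (0.09 to 0.10), with library totals alone (0.03), without the filter on low counts (0.07) and in the listed cells alone (0.08).

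Shares of UMIs set each induced subunit against its counterpart within a sum, where library scaling cancels. Capture differs between genes, so a share can be compared between conditions but is no ratio of molecules. PSMB8, PSMB9 and PSMB10 together made up 34.3% and 33.5% of the UMIs of all 6 catalytic genes in 10 µM persister cells and 2.77% and 2.96% in 320 µM persister cells. Adapted cells had 4.73% and 4.93% at 10 µM and 6.78% and 6.29% at 320 µM, against 3.85% and 3.79% in control. The exact 95% binomial intervals (Clopper-Pearson, counting error only) were 33.3% to 35.4% and 32.4% to 34.6% in 10 µM persister cells and 3.64% to 4.07% and 3.59% to 4.01% in control. The conditions did not overlap between pools. These shares were not tested, because the smallest p that an exact permutation test (two-sided) allows for 2 sums against 2 is 0.333.

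PSMB9 accounted for 48.4% and 49.6% of the PSMB9 and PSMB6 UMIs in 10 µM persister cells and 3.0% and 2.7% in 320 µM persister cells. Adapted cells had 5.56% and 5.77% at 10 µM and 10.7% and 10.2% at 320 µM, against 3.02% and 3.18% in control. The adapted shares lay between those of 10 µM persister cells and control. PSMB8 accounted for 29.8% and 29.1% of the PSMB8 and PSMB5 UMIs in 10 µM persister cells and 2.98% and 3.66% in 320 µM persister cells. Adapted cells had 4.44% and 4.68% at 10 µM and 5.67% and 5.43% at 320 µM, against 4.48% and 4.65% in control. The PSMB8 share of 320 µM adapted cells was thus above control although its level was below, and PSMB5 fell further. PSMB10 accounted for 7.67% and 6.06% of the PSMB10 and PSMB7 UMIs in 10 µM persister cells and 1.95% and 1.91% in 320 µM persister cells. Adapted cells had 3.48% and 3.65% at 10 µM and 2.87% and 2.47% at 320 µM, against 4.06% and 3.25% in control. The PSMB10 share of 320 µM adapted cells was thus below control, unlike those of PSMB8 and PSMB9, and that of 10 µM adapted cells lay within the control range. PSME1 and PSME2 together made up 94.6% and 94.4% of the UMIs of PSME1 to PSME4 in 10 µM persister cells and 82.8% and 81.8% in 320 µM persister cells. Adapted cells had 89.5% and 90.3% at 10 µM, above control, and 85.8% and 86.1% at 320 µM, below it, against 87.6% and 87.9% in control.

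**Figure D3:**
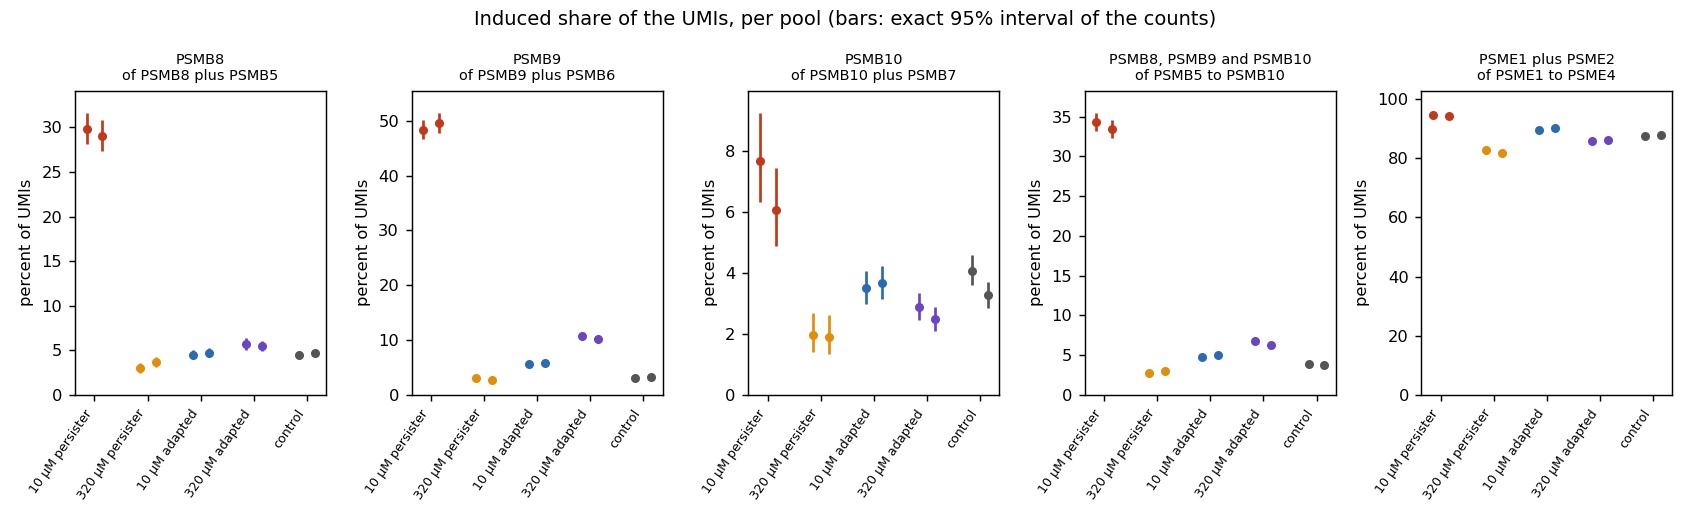
Percent of UMIs (y axis, from 0) that belong to the induced subunits of each pair or group, by condition (x axis), with 1 point per pool and exact 95% intervals of the counts. The 10 µM persister points stand above the others in every panel, at 34.3% and 33.5% against 3.85% and 3.79% in control for the 6 catalytic genes.

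Within 10 µM persister cells PSMB9 and PSMB8 were each seen in most cells before thinning, and PSMB10 in 24.7% and 25.1%. A PSMB9 UMI was seen in 83.0% and 81.4% of 10 µM persister cells and 10.6% and 11.9% of 320 µM persister cells. Adapted cells had 20.3% and 23.8% at 10 µM and 29.1% and 31.7% at 320 µM, against 11.1% and 13.3% of control cells. After each cell was thinned to 3000 UMIs, the shares were 61.5% and 57.6% of 10 µM persister cells and 3.99% and 3.07% of 320 µM persister cells. Adapted cells had 9.80% and 10.9% at 10 µM and 11.5% and 10.8% at 320 µM, against 4.33% and 4.35% of control cells. Thinning left out 207 shallower cells of 13800. It dropped 27 of 300 and 25 of 263 10 µM persister cells, a larger part than in control (11 of 2435 and 18 of 2155). In 320 µM persister cells 15 of 742 and 20 of 606 were dropped. Adapted cells lost 35 of 1831 and 21 of 1584 at 10 µM, and 19 of 2038 and 16 of 1846 at 320 µM. No cells in these pools are known to lack the gene, so none give a background level. All conditions of a pool also share its free RNA. Shares near the 3.07% of 320 µM persister cells or the 4.33% and 4.35% of control cells therefore cannot be told apart from background. How much free RNA adds to the low PSMB9 levels of 320 µM persister and control cells was not tested. For PSMB8 the thinned shares were 45.8% and 44.5% in 10 µM persister cells and 4.32% to 7.38% in all other sums, and unthinned they were 81.7% and 79.5% of 10 µM persister cells, against 17.7% and 19.8% of control cells. For PSMB10 the unthinned shares in the 8 other sums were 5.12% to 10.2%. Thinned, a PSMB10 UMI was seen in 6.96% and 7.98% of 10 µM persister cells, 0.683% to 3.51% of cells in the other treated sums and 3.75% and 2.90% of control cells. PSMB5, by comparison, was seen in 74.4% and 73.9% of thinned 10 µM persister cells, against 77.7% and 78.9% of control cells.

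The thinned 10 µM persister cells held a median of 2 UMIs of PSMB8, PSMB9 and PSMB10, against a median of 0 in control and in the other treated conditions. No such UMI was seen in 23.1% and 22.3% of thinned 10 µM persister cells, against 85.9% and 87.0% of control cells. At least 3 were seen in 35.5% and 29.4% of thinned 10 µM persister cells, against 0.289% and 0.421% of control cells. The induced UMIs outnumbered those of PSMB5, PSMB6 and PSMB7 in 20.5% and 19.3% of 10 µM persister cells, against 0.701% and 0.608% of control cells. In the other treated sums that share was 0.341% to 1.73%.

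**Figure D4:**
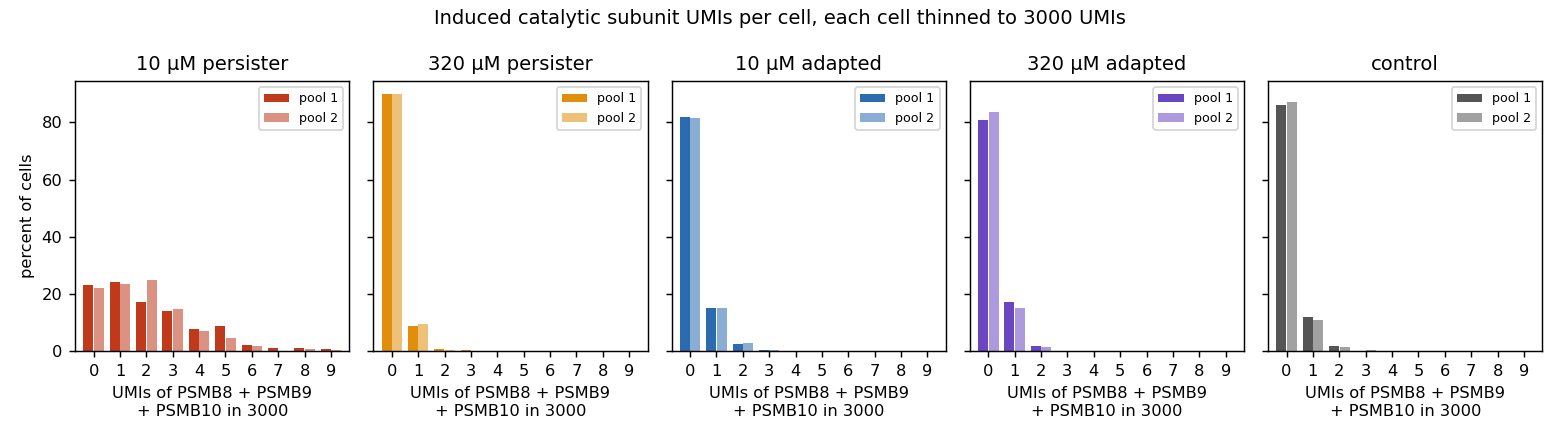
Percent of cells (y axis) by the number of PSMB8, PSMB9 and PSMB10 UMIs in a cell (x axis) after thinning to 3000 UMIs, for the 5 conditions and 2 pools (dark and light bars). The 10 µM persister cells spread from 0 to 9 UMIs with 23.1% and 22.3% at 0, and more than 80% of cells in the other conditions are at 0.

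Outside the induced genes, the role groups gave mixed counts in 10 µM persister cells, where 27.3% of all genes rose and 29.3% fell. Of the 7 tested alpha ring genes 3 rose and none fell, of the 4 structural beta genes 2 rose and 2 fell, and of the 3 constitutive catalytic genes 1 rose and 2 fell. In the cap 2 of the 6 ATPase genes rose and none fell, a share of 33.3% near that of all genes, and 2 of the 11 non-ATPase genes rose and 2 fell. PSMC4, a 19S ATPase, stood at 457 and 406 CPM in 10 µM persister cells, against 233 and 236 CPM in control (log2 change 0.88 ± 0.05, edgeR adjusted p = 2.93e-15). PSMA5 and PSMA6, both alpha ring subunits, are named here after their values were seen. PSMA5 stood at 367 and 328 CPM in 10 µM persister cells, against 192 and 203 CPM in control (log2 change 0.82 ± 0.05), and PSMA6 at 42.5 and 43.0 CPM in 10 µM persister cells, against 22.0 and 20.7 CPM in control (log2 change 1.00 ± 0.10). PSMA6 overlaps another gene of the table on its own strand, so its reads may be shared.

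The falls in 10 µM persister cells were led by an activator and by the 2 scaffold subunits at the base of the cap. PSME4, which encodes the PA200 activator, stood at 34.8 and 33.6 CPM in 10 µM persister cells and 52.0 and 57.0 CPM in 320 µM persister cells. Adapted cells had 39.5 and 36.0 CPM at 10 µM and 28.6 and 29.4 CPM at 320 µM, against 67.7 and 67.1 CPM in control. The levels in control were above those of every treated sum. PSMD1, a scaffold of the cap's base, stood at 134 and 115 CPM in 10 µM persister cells and 154 and 144 CPM in 320 µM persister cells. Adapted cells had 102 and 100.3 CPM at 10 µM and 84.7 and 84.1 CPM at 320 µM, against 202 and 205 CPM in control. Here too no treated sum reached control, and the 320 µM adapted sums were lowest. PSMD2, the other scaffold, stood at 154 and 147 CPM in 10 µM persister cells and 233 and 227 CPM in 320 µM persister cells. Adapted cells had 159 and 147 CPM at 10 µM and 134 and 136 CPM at 320 µM, against 254 and 248 CPM in control. PSMD2 was nearest to control in 320 µM persister cells. The log2 changes of PSME4, PSMD1 and PSMD2 in 10 µM persister cells were -0.98 ± 0.09, -0.71 ± 0.06 and -0.74 ± 0.05, and PSMB1, a structural beta subunit, fell by 0.45 ± 0.05 on the log2 scale.

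The activator gene PSME3 and the inhibitor gene PSMF1 rose in 10 µM persister cells. PSME3, which encodes the nuclear PA28 gamma, stood at 41.0 and 40.6 CPM in 10 µM persister cells and 26.6 and 26.9 CPM in 320 µM persister cells. Adapted cells had 28.7 and 28.2 CPM at 10 µM and 34.7 and 31.9 CPM at 320 µM, against 26.9 and 25.8 CPM in control. Its log2 change was 0.63 ± 0.09 in 10 µM persister cells and 0.34 ± 0.07 in 320 µM adapted cells (0.11 and not called there when sums were scaled by library totals alone). PSMF1, which encodes the inhibitor PI31, rose by 0.57 ± 0.08 in 10 µM persister cells, 0.26 ± 0.07 in 10 µM adapted cells and 0.73 ± 0.07 in 320 µM adapted cells. The rise in 10 µM adapted cells was 0.18 and not called in the listed cells alone.

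POMP, the chaperone that matures new cores and is known to favour the induced subunits, stood at 614 and 607 CPM in 10 µM persister cells and 451 and 450.1 CPM in 320 µM persister cells. Adapted cells had 299 and 301 CPM at 10 µM and 359 and 350 CPM at 320 µM, against 475 and 488 CPM in control. It rose in 10 µM persister cells (log2 change 0.34 ± 0.04, edgeR adjusted p = 3.4e-08) and fell in both adapted populations (-0.68 ± 0.04 and -0.44 ± 0.04). Its value in 320 µM persister cells, -0.10 ± 0.04, sat at the threshold (edgeR adjusted p = 0.0496) and lost its call without any 1 of the 4 sums compared (-0.10 to -0.08) and under 5 of the other settings (-0.08 to -0.04).

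In 320 µM persister cells the fall reached every role group of the core. The 4 structural beta genes, all 3 constitutive catalytic genes, 5 of 7 alpha ring genes and 2 of 5 core assembly chaperones fell. In the cap 5 of 6 ATPase genes, 6 of 11 non-ATPase genes and none of its 3 assembly chaperones fell, while 28.3% of all genes fell. The 14 tested constitutive 20S genes summed to 5090 and 4712 CPM in 10 µM persister cells and 3916 and 3794 CPM in 320 µM persister cells. Adapted cells had 4370 and 4307 CPM at 10 µM and 4489 and 4366 CPM at 320 µM, against 4856 and 4901 CPM in control. The sums of 320 µM persister cells were the lowest in both pools. Among the largest falls was PSMA4, an alpha ring gene, at 127 and 118 CPM in 320 µM persister cells, against 197 and 198 CPM in control (log2 change -0.69 ± 0.05). The single rise was PSMD4, a ubiquitin receptor of the cap, by 0.13 ± 0.05, which was 0.11 and not called without the pool 1 sum of 320 µM persister cells, 0.12 and not called without the pool 2 sum of control, and 0.11 and not called without the filter on low counts.

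The falls of adapted cells against control covered the core, the cap and the activators. Both doses were set against the same control sums. PSMB2, a structural beta subunit, stood at 254 and 243 CPM in 10 µM adapted cells and 218 and 216 CPM in 320 µM adapted cells, against 472 and 474 CPM in control, with log2 changes of -0.93 ± 0.04 and -1.13 ± 0.04 and no overlap between the pools of the 3 conditions. PSMD1 and PSME4 fell by 1.01 ± 0.05 and 0.84 ± 0.07 on the log2 scale in 10 µM adapted cells and by 1.27 ± 0.05 and 1.22 ± 0.07 in 320 µM adapted cells. PSMA2, an alpha ring gene, fell by 0.81 ± 0.17 in 10 µM adapted cells. It shares 15318 bases with another gene of the table, AC010132.3, on its own strand, so its reads may be shared. By role, 10 of the 11 non-ATPase genes of the cap fell in 10 µM adapted cells and none rose, while 33.4% of all genes fell and 33.7% rose. In 320 µM adapted cells 8 fell and 2 rose, while 36.9% of all genes fell and 37.6% rose.

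The highest rises of adapted cells after PSMB9 were in assembly chaperones. PSMG4, part of the heterodimer with PSMG3 that helps to build the alpha ring, stood at 49.2 and 45.9 CPM in 10 µM persister cells and 33.1 and 35.8 CPM in 320 µM persister cells. Adapted cells had 63.1 and 64.5 CPM at 10 µM and 105 and 103 CPM at 320 µM, against 38.9 and 38.1 CPM in control. The order from 320 µM adapted down to 320 µM persister cells held in both pools. PSMG2, part of the heterodimer with PSMG1, stood at 75.3 and 76.4 CPM in 10 µM persister cells and 64.2 and 62.2 CPM in 320 µM persister cells. Adapted cells had 101 and 98.6 CPM at 10 µM and 122 and 122 CPM at 320 µM, against 67.9 and 66.0 CPM in control. The adapted sums were above all others for both genes. The log2 changes against control were 0.73 ± 0.06 and 1.43 ± 0.06 for PSMG4 at 10 µM and 320 µM, and 0.57 ± 0.05 and 0.87 ± 0.05 for PSMG2. Of their partners, PSMG3 fell by 0.64 ± 0.06 and 0.45 ± 0.06 on the log2 scale, and PSMG1 fell by 0.48 ± 0.06 in 10 µM adapted cells and had a log2 change of 0.12 ± 0.06 in 320 µM adapted cells. PSMD6, a non-ATPase subunit of the cap, stood at 112 and 112 CPM in 320 µM adapted cells, against 63.4 and 61.9 CPM in control (log2 change 0.84 ± 0.06), and PSMG4 and PSMG2 overlap other genes on the opposite strand.

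Compared directly, adapted cells at 10 µM had 7 proteasome genes higher and 31 lower than 10 µM persister cells (31.4% and 29.3% of all genes), with all 5 induced genes lower. Scaled by library totals alone, which moved the all-gene median by -0.19, the split was 3 higher and 38 lower. Of the induced genes PSMB9 and PSMB8 fell by 3.56 ± 0.07 and 3.33 ± 0.08 on the log2 scale and PSME2 by 1.48 ± 0.04, and PSMC4 fell by 1.45 ± 0.05. The rises were led by PSMB6 (0.44 ± 0.06), PSMG4 (0.43 ± 0.08), PSMD10 (0.42 ± 0.12) and PSMG2 (0.39 ± 0.06). PSMD10, the cap assembly chaperone gankyrin, was not called without the pool 1 sum of 10 µM persister cells (0.35), in the listed cells alone (0.23) or with library totals alone (0.23).

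At 320 µM, adapted cells had 21 genes higher and 17 lower than persister cells (34.1% and 32.6% of all genes). Scaled by library totals alone, which moved the all-gene median by -0.28, 12 were higher and 25 lower, so this balance depends on the scaling. PSMB9 rose by 2.11 ± 0.10 on the log2 scale, PSMG4 by 1.59 ± 0.07, PSMB10 by 1.17 ± 0.18, PSMD6 by 0.96 ± 0.06 and PSMG2 by 0.95 ± 0.06. PSME4, PSMD1, PSMC4 and PSMB2 fell by 0.91 ± 0.08, 0.82 ± 0.06, 0.79 ± 0.05 and 0.77 ± 0.04. PSMB8 had a change of 0.18 ± 0.11 that did not pass the test and was 0.33 and called without the pool 2 sum of 320 µM persister cells, and 0.48 and called in the listed cells alone. PSME1 was 0.26 ± 0.05 higher but -0.02 when scaled by library totals alone, and PSMB6 was 0.13 ± 0.05 higher but -0.15 under that scaling. PSMB6 also lost its call without any 1 of the 4 sums compared (0.09 to 0.15), in DESeq2 (0.12), with RLE factors (0.12) and in the listed cells alone (0.04).

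Between the doses, 320 µM persister cells had 5 genes higher and 30 lower than 10 µM persister cells (25.3% and 24.4% of all genes), with all 5 induced genes lower. PSMB9 fell by 5.22 ± 0.09, PSMB8 by 3.65 ± 0.09, PSMB10 by 2.45 ± 0.20, PSME2 by 2.06 ± 0.05 and PSME1 by 1.29 ± 0.05 on the log2 scale. PSME4 and PSMD2 were higher, by 0.67 ± 0.09 and 0.61 ± 0.06, and so were PSMG3 (0.33 ± 0.08) and PSMD1 (0.26 ± 0.06). The rises were 3 without the pool 2 sum of 10 µM persister cells, when PSMG3 (0.21) and PSMD1 (0.15) lost their calls. PSMB6 fell by 0.19 ± 0.06, and the change was -0.06 and not called without the pool 1 sum of 10 µM persister cells and -0.17 and not called without the pool 2 sum of 320 µM persister cells.

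Between 320 µM and 10 µM adapted cells 21 genes were higher and 15 lower (33.4% and 32.4% of all genes), or 12 higher and 19 lower when scaled by library totals alone, which moved the all-gene median by -0.16. All 5 assembly chaperones of the core were higher at 320 µM, with POMP at 0.24 ± 0.04, a call lost under scaling by library totals alone (0.08). PSMD6, PSMG4, PSMG1 and PSMF1 rose most, by 0.84 ± 0.06, 0.70 ± 0.06, 0.60 ± 0.06 and 0.47 ± 0.07 on the log2 scale. PSME2, PSMC2, PSMB6 and PSME1 fell most, by 0.78 ± 0.04, 0.73 ± 0.06, 0.50 ± 0.05 and 0.47 ± 0.05. PSME3 was higher by 0.23 ± 0.08, which was 0.21 and not called without the pool 2 sum of 10 µM adapted cells and 0.17 and not called without the pool 1 sum of 320 µM adapted cells, and not called in DESeq2 (0.21), in the listed cells alone (0.20) and with library totals alone (0.07).

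The change between adapted and persister cells differed between the doses. Tested as a difference of the 2 differences, 320 µM minus 10 µM, 31 proteasome genes were higher and 6 lower, while 23.4% of all genes were higher and 25.9% lower. The median over the 47 was 0.50 on the log2 scale, against -0.03 over all genes. All 5 induced genes were among the 31, led by PSMB9 (5.67 ± 0.12), PSMB8 (3.51 ± 0.14) and PSMB10 (2.30 ± 0.24). PSME4, PSMD2 and PSMD1 had the most negative differences, -1.05 ± 0.12, -0.79 ± 0.07 and -0.52 ± 0.08.

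Genes that act upstream and downstream of the immunoproteasome moved with it in 10 µM persister cells. Of 13 interferon signalling genes 11 rose and none fell in 10 µM persister cells, against 4 higher and 2 lower in 320 µM persister cells, 3 and 4 in 10 µM adapted cells and 6 and 3 in 320 µM adapted cells, each set against control. Of all genes 27.3% rose and 29.3% fell in 10 µM persister cells, 26.3% and 28.3% in 320 µM persister cells, 33.7% and 33.4% in 10 µM adapted cells and 37.6% and 36.9% in 320 µM adapted cells. The 4 of 13 that rose in 320 µM persister cells and the 3 higher and 4 lower in 10 µM adapted cells were near those shares or below them. IRF1, a transcription factor that interferon induces and that binds interferon response elements, stood at 252 and 185 CPM in 10 µM persister cells and 33.8 and 31.5 CPM in 320 µM persister cells. Adapted cells had 35.2 and 37.9 CPM at 10 µM and 25.2 and 25.9 CPM at 320 µM, against 64.2 and 59.7 CPM in control. Like PSMB8 and PSME2, it was above control in 10 µM persister cells (log2 change 1.82 ± 0.12) and below it in the other 3 conditions. IFNGR1, a chain of the interferon gamma receptor, stood at 131 and 105 CPM in 10 µM persister cells and 46.3 and 41.1 CPM in 320 µM persister cells. Adapted cells had 28.8 and 28.5 CPM at 10 µM and 46.8 and 49.7 CPM at 320 µM, against 36.2 and 32.7 CPM in control. It was below control in 10 µM adapted cells and above it in the other 3 conditions, by 1.78 ± 0.09 on the log2 scale in 10 µM persister cells.

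Of 8 genes of peptide transport and loading, all 8 rose in 10 µM persister cells, against 3 higher and 4 lower in 320 µM persister cells, 3 and 2 in 10 µM adapted cells and 3 and 1 in 320 µM adapted cells. Set against the same shares of all genes (27.3% higher in 10 µM persister cells), the adapted counts were near them or below them. TAP1, which moves proteasome products into the endoplasmic reticulum, stood at 181 and 168 CPM in 10 µM persister cells and 4.24 and 5.0 CPM in 320 µM persister cells. Adapted cells had 6.01 and 9.15 CPM at 10 µM and 16.9 and 15.4 CPM at 320 µM, against 3.4 and 4.28 CPM in control. Its log2 changes were 5.50 ± 0.12, 0.26 ± 0.23, 0.98 ± 0.17 and 2.07 ± 0.15, of which the second did not pass the test. TAP1 and PSMB9, whose start sites are 488 bases apart on opposite strands, were thus both higher than control in 10 µM persister cells and in both adapted populations. HLA-B and HLA-C, peptide-presenting chains, had log2 changes of 4.71 ± 0.05 and 4.63 ± 0.07 in 10 µM persister cells. Both were above control in 320 µM persister cells too, where all 5 induced genes fell. HLA-B stood at 187 and 200 CPM there, against 85.3 and 90.4 CPM in control. HLA-C stood at 146 and 138 CPM there, against 74.4 and 66.8 CPM in control. In adapted cells HLA-B was at 266 and 276 CPM (10 µM) and 354 and 348 CPM (320 µM). HLA-C was at 233 and 221 CPM and 308 and 296 CPM in the same order. Near-identical sequences within their family leave the split of reads uncertain.

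**Figure D5:**
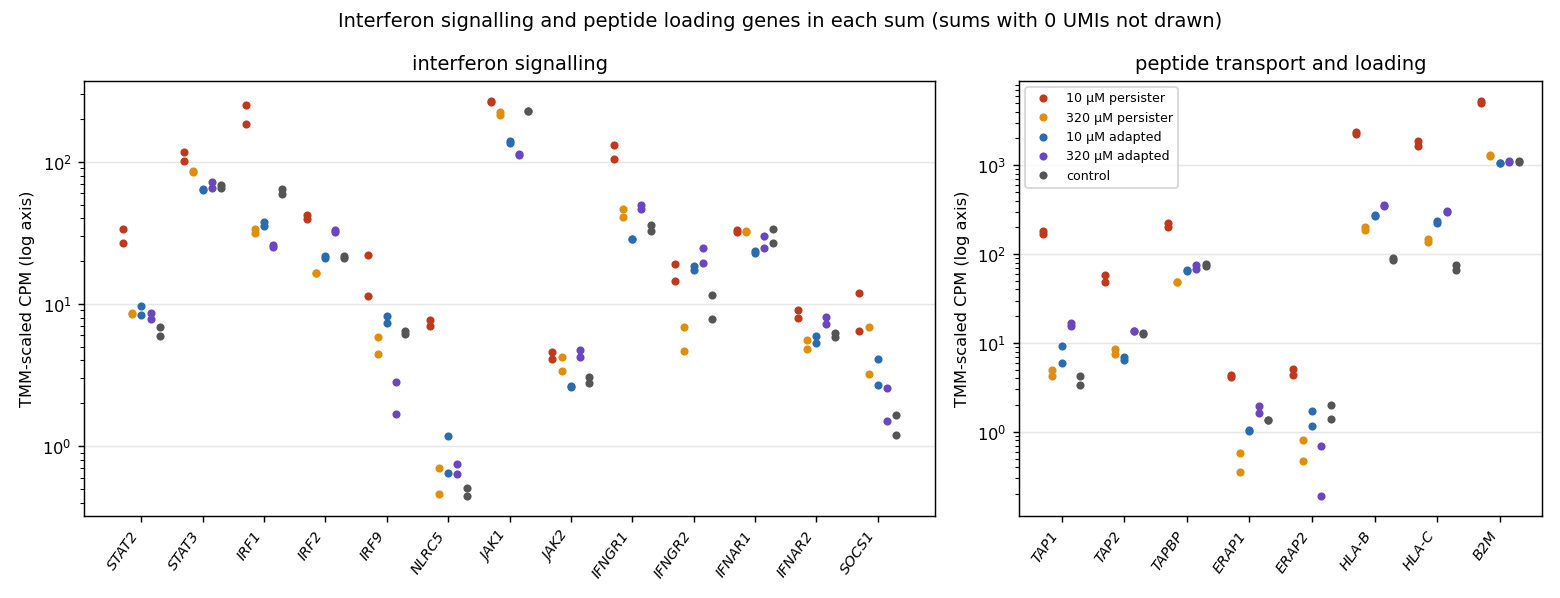
TMM-scaled CPM (y axis, log scale) of 13 interferon signalling genes (left) and 8 peptide transport and loading genes (right), with 1 point per pool and the 5 conditions from left to right within each gene. IRF1 lies at 252 and 185 CPM in 10 µM persister cells against 64.2 and 59.7 CPM in control, and TAP1 at 181 and 168 CPM against 3.4 and 4.28 CPM.

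Regulators known to act on the constitutive genes did not share a pattern. NFE2L1, the transcription factor that raises proteasome genes when proteasome activity is low, stood at 46.4 and 64.1 CPM in 10 µM persister cells and 65.0 and 64.7 CPM in 320 µM persister cells. Adapted cells had 38.4 and 37.3 CPM at 10 µM and 34.3 and 36.9 CPM at 320 µM, against 25.7 and 25.0 CPM in control. It was above control in all 4 conditions, by 1.13 ± 0.10, 1.36 ± 0.09, 0.58 ± 0.08 and 0.49 ± 0.08 on the log2 scale. DDI2, the protease known to release NFE2L1, was higher in 320 µM persister cells (0.81 ± 0.08) and lower in 10 µM and 320 µM adapted cells (-1.28 ± 0.09 and -0.64 ± 0.08). NFE2L2, a further gene of this list, is named here after its values were seen. It stood at 168 and 157 CPM in 10 µM persister cells and 155 and 160 CPM in 320 µM persister cells. Adapted cells had 88.8 and 86.1 CPM of NFE2L2 at 10 µM and 143 and 151 CPM at 320 µM, against 101 and 97.7 CPM in control. Of the 4 genes on this list 2 rose and none fell in 10 µM persister cells, where 27.3% of all genes rose. In 320 µM persister cells 3 rose and none fell. There 26.3% of all genes rose, and 31 of 47 proteasome genes were lower than in control. In 10 µM adapted cells 1 rose and 3 fell, against 33.7% and 33.4% of all genes. In 320 µM adapted cells 2 rose and 1 fell, against 37.6% and 36.9% of all genes.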

How the data were processed

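The authors deposited 1 table of UMI counts per gene and cell, unnormalized, for 13800 hashed Kuramochi cells of both pools (8 expression and 2 hashtag libraries). Cell Ranger 3.1, Seurat and GRCh38 are named in the submitters' processing notes, with no settings for cell or doublet filters. None of the 10 deposited samples is of 1 condition, so condition and pool were read from the cell names, and 13 barcodes occurred in both pools. A second deposited table gives the UMI count of 7762 listed cells, and how they were chosen is not given in the sources used here.

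Counts were summed per condition and pool without a further cell filter. edgeR 4.0.16 in R 4.3.3 (TMM factors, filterByExpr by condition, robust quasi-likelihood fit of all 10 sums, Benjamini-Hochberg over 13330 genes, threshold 0.05) gave the 9 comparisons. It was also run on simulated data that held no shared deviation of a pool, so that run cannot speak to such deviations. The biological coefficient of variation was 4.39% with 5 residual degrees of freedom. Same-numbered sums come from the same pool, and their deviations correlated at 0.333 to 0.607 over 2730 genes. The alternatives were DESeq2 1.42.0, RLE factors, library totals alone, no filter on low counts, a replicate block, only the sums compared, listed cells alone and each sum left out. Intervals and the floor of 3 UMIs cover counting error only.

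Named were the 5 induced genes, PSMB5, PSMB6, PSMB7, PSME3 and POMP, the untested genes, and in each pairwise comparison up to 4 called genes of largest rise and of largest fall with at least 20 CPM in the higher condition (3 each way in the difference of differences). From the other lists the rule took up to 4 called genes of largest change per comparison with at least 20 CPM. The genes, lists and motifs were chosen with earlier results of these data known. Antisense genes of this family were not analysed here, and a few genes of the other lists are not reported here. Positions are from GENCODE 29 on GRCh38.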

Additional observations from a re-analysis of the deposited data

Results flagged for a closer look

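The test of whether adapted and persister cells differed by the same amount at both doses called 31 proteasome genes higher and 6 lower. Of all genes 23.4% were higher and 25.9% lower. Listed here are the 10 genes that are always named and 3 others, all of them among those called. The values are log2 changes of adapted over persister cells at 320 µM minus the same at 10 µM, from edgeR's quasi-likelihood test, so a positive value means a greater rise or smaller fall at 320 µM. The induced genes had 5.67 for PSMB9, 3.51 for PSMB8, 2.30 for PSMB10, 1.28 for PSME2 and 0.82 for PSME1. In each of these the 10 µM persister sums were above all other sums, and both persister conditions enter the difference.

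PSME3 had 0.84, PSMB7 0.83 and POMP 0.68. PSMB6 had -0.31 and PSMB5 -0.39, PSMD1 -0.52, PSMD2 -0.79 and PSME4 -1.05. The last 3 were lower in 320 µM adapted than in 320 µM persister cells, while at 10 µM PSMD1 fell by less and PSMD2 and PSME4 had no called change.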

How the results depend on the processing

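Under the alternatives, 1442 values of named genes kept their direction and side of the threshold, 54 lost the call, 6 gained it and 2 reversed. The reversals were PSME1 (-0.022) and PSMB6 (-0.15) in 320 µM adapted against persister cells, both under library totals alone. With the replicate block the counts were 21 higher and 8 lower in 10 µM persister cells against control, and the block changed no call of a named gene and moved no count by over 1.5 times.

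With library totals alone, 5 genes were lower in 10 µM persister cells (5 in DESeq2 too) and 2 higher in 320 µM persister cells, 7 were higher in 320 µM adapted cells, all against control, 3 were higher in 10 µM adapted than persister cells, 12 in 320 µM adapted than persister cells and 12 in 320 µM than 10 µM adapted cells. The rises in 320 µM persister cells were 0 without the filter on low counts and 2 in listed cells, and 10 µM adapted cells had 4 higher than persister cells in listed cells. Leaving out 1 sum gave 5 to 10 lower genes in 10 µM persister cells and 0 to 1 higher in 320 µM persister cells, both against control, and 3 to 6 higher in 320 µM than in 10 µM persister cells.

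Set against 14 constitutive 20S genes, the induced share was 11.3% at 10 µM and 0.794% at 320 µM among persister cells, and 1.46% and 1.65% among adapted cells at these doses, against 1.03% in control. In listed cells it was 2.69% in persister and 6.98% in adapted cells, both at 320 µM, against 4.32% in control. Thinned, it was 3.27% at 320 µM in persister cells and 5.85% at 10 µM in adapted cells, against 3.94% in control. Single pools gave 33.5% to 34.3%, 2.77% to 2.96%, 4.73% to 4.93% and 6.29% to 6.78% in the 4 treated conditions, in the order above, and 3.79% to 3.85% in control. Causes were not tested. The 10 µM persister sums held the fewest UMIs, 3532281 and 3745019, which limits genes of low count there.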

Other observations

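Of 10 proteasome-bound factors with a value, 3 were higher and 4 lower than control in 10 µM persister cells, 2 and 4 in 320 µM persister cells, 2 and 4 in 10 µM adapted cells and 4 and 4 in 320 µM adapted cells. Of all genes 27.3% were higher and 29.3% lower in 10 µM persister cells, 26.3% and 28.3% in 320 µM persister cells, 33.7% and 33.4% in 10 µM adapted cells and 37.6% and 36.9% in 320 µM adapted cells, so most of these counts are near the shares of all genes. UCHL5, a deubiquitinase of the cap, was below control in all 4, by log2 changes of -0.32 ± 0.08, -0.46 ± 0.07, -1.17 ± 0.07 and -0.75 ± 0.07 in the same order. ADRM1, the cap subunit that anchors UCHL5, was higher in 320 µM adapted cells (0.60 ± 0.05).

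Of 9 genes of ubiquitin and its shuttles, 3 were higher and 3 lower than control in 10 µM persister cells, 1 and 3 in 320 µM persister cells, 1 and 4 in 10 µM adapted cells and 3 and 5 in 320 µM adapted cells, beside the same shares of all genes. VCP, the ATPase that extracts ubiquitin-tagged proteins, was lower in all 4 conditions, by -0.52 ± 0.05, -0.64 ± 0.05, -1.39 ± 0.05 and -1.15 ± 0.05. PSMC3IP, whose name resembles the family but which acts in meiotic recombination, had a log2 change of 0.21 ± 0.09 in 320 µM adapted cells, the only 1 of the 4 comparisons with control in which it was called.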
